A study of Mus musculus with 6 samples.

Results

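Insulin-like growth factor (IGF) ligands, their receptor and their binding proteins were followed at the RNA level across the cell types of the adult mouse olfactory bulb. The set was chosen by gene name and holds 9 of the 18560 genes in the deposited count table: the ligands Igf1 and Igf2, the receptor gene Igf1r, the binding protein genes Igfbp2, Igfbp3, Igfbp4 and Igfbp5, and the related secreted proteins Igfbp7 and Igfbpl1. The study compared single-cell RNA of dissociated bulbs from C57BL/6NJ mice in 3 conditions: control, naris occlusion (1 nostril closed, which deprives the bulb of odor) and trained (olfactory training). By the study's methods, trained mice were deprived of water and worked for a water reward, which is not described for the others. The design cannot tell odor training and water deprivation apart, and below "training" stands for both. Each condition had 2 libraries, and the study's methods give mice of both sexes, an age of 14 weeks and 6 weeks of deprivation or training. A plot key of the study names each library as a pool of mice, males in replicate 1 and females in replicate 2 of every condition. The labels give the controls no manipulation, while the study's text calls them in one place the open side of occluded mice and in another naive mice, so their origin was not settled here. The labels give the same strain for all 6 libraries, and the study calls the sequenced mice wild-type.

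IGF1 and IGF2 are secreted peptides that signal through the tyrosine kinase receptor encoded by Igf1r. Binding proteins in the fluid around cells hold most of the ligand, carry it, and raise or lower the amount that reaches the receptor, and proteases that cut them release it again. In the olfactory bulb, which receives new neurons throughout life, IGF signalling is known for its part in the survival, migration and wiring of neurons and sensory axons.

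The 9 genes lie on 6 chromosomes, and coordinates are those of RefSeq on GRCm38.p6, the same assembly as the submitters' mm10. Igf1 spans chr10:87858265-87937047 on the plus strand, Igf2 chr7:142650768-142666816 on the minus strand and Igf1r chr7:67952257-68233668 on the plus strand. Igfbp3 (chr11:7206086-7215498, minus strand) and Igfbp4 (chr11:99040005-99052655, plus strand) share a chromosome, Igfbp7 lies at chr5:77349240-77408045 on the minus strand, and Igfbpl1 lies at chr4:45809507-45826827. Igfbp2 (chr1:72824480-72852474, plus strand) and Igfbp5 (chr1:72858065-72874865, minus strand) are neighbours that point at each other, with 5590 bases between their ends. Their highest clusters differed, as given further on, so the 250 bases before the first base of each are shown. Both are read 5′ to 3′ along the gene from RefSeq GRCm38.p6. The upstream-most of 2 annotated starts was used for Igfbp2, and Igfbp5 has 1. Capitals mark matches to GGGCGG, the GC box, and to a second motif, TATTTAA, which resembles a TATA box.
Igfbp2, chr1:72824230-72824479, plus strand: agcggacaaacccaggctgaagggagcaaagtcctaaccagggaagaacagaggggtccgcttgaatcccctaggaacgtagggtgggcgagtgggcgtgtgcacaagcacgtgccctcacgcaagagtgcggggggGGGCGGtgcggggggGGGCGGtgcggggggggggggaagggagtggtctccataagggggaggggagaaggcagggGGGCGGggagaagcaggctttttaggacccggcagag
Igfbp5, chr1:72874866-72875115, minus strand: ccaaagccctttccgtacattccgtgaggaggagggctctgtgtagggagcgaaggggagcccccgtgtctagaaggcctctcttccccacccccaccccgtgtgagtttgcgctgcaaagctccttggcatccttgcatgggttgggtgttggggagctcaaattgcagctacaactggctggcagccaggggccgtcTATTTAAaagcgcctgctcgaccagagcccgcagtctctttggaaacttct

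The Igfbp2 window held 3 GGGCGG matches and none to TATAAA or TATTTAA, and the Igfbp5 window held 1 TATTTAA match, 45 to 51 bases before the start, and no GGGCGG. Both strands were searched, and these letters were chosen after the windows had been read. Of the 32851 windows of the same length in the promoter table, 32.7% held GGGCGG, 12.4% held TATAAA and 4.18% held TATTTAA. Base composition differed between the neighbours, with 67.2% G or C before Igfbp2 and 58.8% before Igfbp5. Among the other members with a window, Igfbp7 had 4 GGGCGG matches, Igf1r had 2, and Igfbp4 had a TATAAA match.

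The count table held 51426 annotated cells in 38 clusters of the whole bulb, and 21746 neurons among them carried a second annotation with 18 neuron clusters. Cluster names are those deposited with the data, and their numbering within a cell type is not that of the published figures. Libraries held between 11841160 and 17065083 UMIs (unique molecular identifiers, each standing for 1 captured RNA molecule), with a median of 1028 to 1724 UMIs per cell. Trained replicate 1 stood apart with the lowest median, 1028 UMIs per cell, and the highest median share of mitochondrial UMIs, 14.4% against 9.25% to 11.7% in the others. Pairs of libraries shared 65 to 144 cell barcodes, of which between 0 and 11 had the same cluster in both. Xist was at 0 to 5 UMIs in each replicate 1 library and at 20000 to 27904 in each replicate 2 library, which matches the sexes given. Levels are CPM, UMIs of a gene scaled to 1000000 UMIs of a cluster in a library, as mean ± SD over the 6 libraries. Comparisons of levels between clusters are descriptions without a test, because the clusters were built from the same cells' RNA, and "beyond the spread" means that the mean difference within libraries exceeded its SD.

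**Figure D1:**
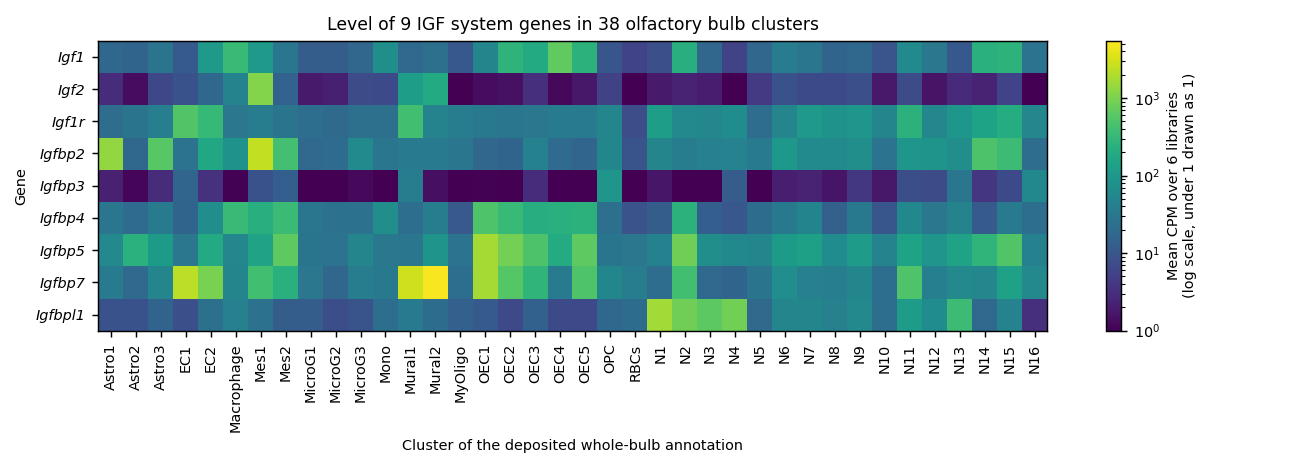
Mean CPM over the 6 libraries (color, log scale) of the 9 genes (vertical axis) in the 38 clusters of the whole-bulb annotation (horizontal axis). Most genes had 1 or a few bright clusters: OEC4 for Igf1, Mes1 for Igf2, EC1 for Igf1r and N1 for Igfbpl1.

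Igf1, the ligand, was highest in the whole-bulb annotation in olfactory ensheathing cells (OECs), the glia that wrap the axons of sensory neurons on their way into the bulb. OECs made up 22.5% of annotated cells and held 77.8% ± 3.5 (SD, n = 6 libraries) of the Igf1 UMIs, and the cluster OEC4 alone held 52.7% ± 4.1. Igf1 in OEC4 was at 678 ± 60.8 CPM, with 733 and 683 CPM in control, 690 and 675 under naris occlusion and 563 and 724 after training. The conditions overlapped, and OEC4 was above every other cluster of the whole-bulb annotation in each of the 6 libraries. Macrophages came next in that annotation at 332 ± 51.3 CPM, 2.04-fold below OEC4 and beyond the spread. OEC2 followed at 274 ± 28.0 CPM. Neuron cluster N15 (261 ± 75.6), OEC5 (251 ± 40.2), neuron cluster N14 (236 ± 93.9) and OEC3 (196 ± 35.2) came after it. Neighbours in that stretch of the order did not differ beyond their spread. Neuron cluster N2 is left out of this order. It had 68 cells and 71 Igf1 UMIs, between 0.0672% and 1.98% of the Igf1 UMIs of a library. An Igf1 UMI was seen in 68.4% of the 3436 OEC4 cells and in 41.1% of macrophages. As a measure of free RNA, 1.83% of red blood cells (median 3894 UMIs per cell) and 2.68% of myelinating oligodendrocytes (median 3322) had one, against a median of 2116.5 UMIs in OEC4. With every cell reduced to 500 UMIs, the expected shares were 27.4% in OEC4, 0.237% in red blood cells and 0.463% in myelinating oligodendrocytes, and no cell was too shallow for it.

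Within the OECs, the ligand and 2 binding proteins had their highest and lowest clusters exchanged, while OEC2, OEC3 and OEC5 lay between. In 6 of 6 libraries Igf1 was highest in OEC4 and lowest in OEC1, whereas Igfbp5 and Igfbp7 were highest in OEC1 and lowest in OEC4. OEC1 held 52.9 ± 3.3 CPM of Igf1 beside 1703 ± 177 CPM of Igfbp5 and 1730 ± 169 CPM of Igfbp7. OEC4 held 678 CPM of Igf1 beside 199 ± 24.2 CPM of Igfbp5 and 33.9 ± 8.9 CPM of Igfbp7. Igfbp4 was also highest in OEC1 in 6 of 6 libraries, at 512 ± 43.8 CPM, with OEC2 at 342 ± 45.9, OEC5 at 250 ± 53.4, OEC4 at 236 ± 32.7 and OEC3 at 217 ± 38.8. The OEC marker genes Sox10, Frzb, Npy and Fabp7 summed to 20555 ± 880 CPM in OEC1 and 36057 ± 1617 CPM in OEC4. OEC1 also carried the endothelial marker Cldn5 at 3630 ± 304 CPM, while the endothelial markers Flt1 (8.62 ± 2.5) and Slco1c1 (4.12 ± 2.4) were near 0 there.

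**Figure D2:**
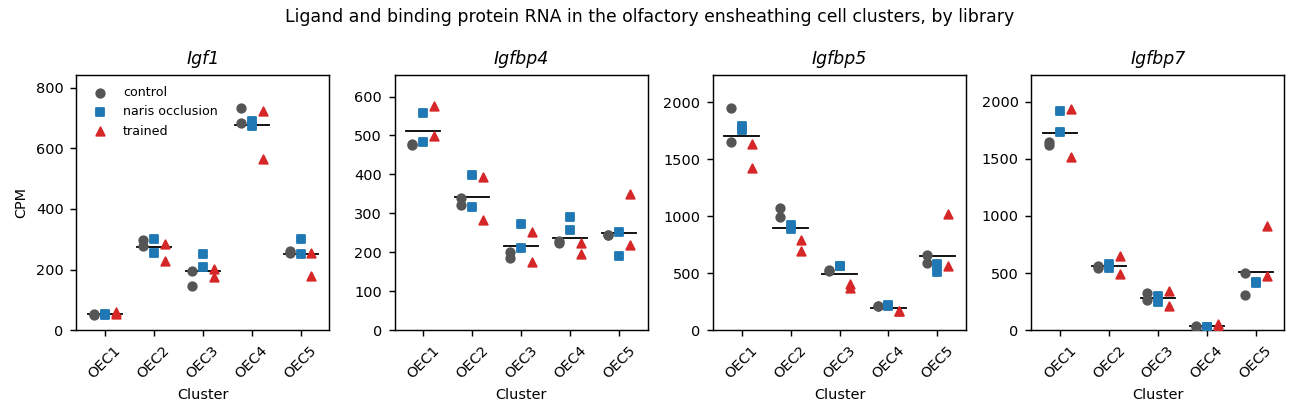
CPM of Igf1, Igfbp4, Igfbp5 and Igfbp7 (vertical axes, from 0) in the OEC clusters OEC1 to OEC5, each symbol 1 library colored by condition, lines at the mean of 6 libraries. Igf1 peaks in OEC4, where Igfbp5 and Igfbp7 are at their lowest.

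Igf2, the second ligand, was highest in Mes1, a cluster of mesenchymal cells, which form the coverings of brain and vessels. Mes1 was at 1112 ± 132 CPM, with 918 and 1170 CPM in control, 1293 and 1127 under naris occlusion and 1005 and 1158 after training. Conditions overlapped in Mes1, which held 69.6% ± 6.3 of all Igf2 UMIs. Mural2 (196 ± 57.0 CPM) lay 5.67-fold lower, and Mural1 followed at 120 ± 37.3 CPM. Mes2, the other mesenchymal cluster, was at 15.1 ± 9.7 CPM. The mesenchymal marker list (Dcn, Lum, Col1a1, Col1a2) summed to 2912 CPM in Mes1 and 995 CPM in Mes2. An Igf2 UMI was seen in 62.2% of the 653 Mes1 cells (median 1339 UMIs) against 0.457% of red blood cells and 0.350% of myelinating oligodendrocytes.

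Igf1r, the receptor for both ligands, was highest in the endothelial cluster EC1 and had a broad lower level in neurons. EC1 was at 531 ± 96.4 CPM, with 480 and 459 CPM in control, 500 and 452 under naris occlusion and 695 and 600 after training. Both trained libraries were above the other 4. Mural1 (406 ± 112 CPM) and EC2 (324 ± 62.0) were next. The step from EC1 to Mural1 was beyond the spread and that from Mural1 to EC2 was not, while the other mural cluster, Mural2, was at 46.6 ± 14.9 CPM. Mural1 also carried the endothelial marker list at 5861 CPM, against 10314 CPM in EC1. Neuron clusters N11 (255 ± 64.3 CPM), N15 (205 ± 59.6), N14 (146 ± 19.8) and N1 (127 ± 12.2) followed, and N11 carried the endothelial markers at 2791 CPM. All neuron clusters together held 40.8% ± 4.0 of the Igf1r UMIs and endothelial cells 37.1% ± 5.2. N11, counted here with the neurons, held 8.01% ± 1.3 of the Igf1r UMIs. By mean share, neurons came before endothelial cells only with N11 counted among them. The part of endothelial RNA in N11 was not tested. OEC clusters, the source of most Igf1 UMIs, were at 29 to 34 CPM of Igf1r. An Igf1r UMI was seen in 55.0% of EC1 cells and in 2.74% of red blood cells.

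**Figure D3:**
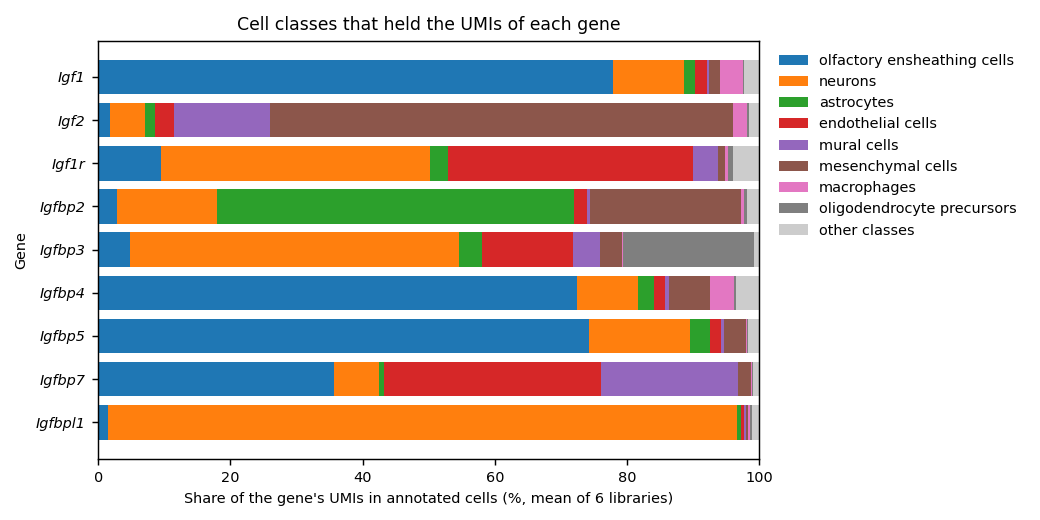
Share of each gene's UMIs (horizontal axis, percent, mean of 6 libraries) held by each cell class, stacked over all annotated cells. OECs held most UMIs of Igf1, Igfbp4 and Igfbp5, mesenchymal cells those of Igf2, astrocytes those of Igfbp2 and neurons those of Igfbpl1.

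Igfbp2, a binding protein with a preference for IGF2, was shared in the whole-bulb annotation by mesenchymal cells and astrocytes. Mes1 stood at 2512 ± 263 CPM, with 2548 and 2346 CPM in control, 2868 and 2520 under naris occlusion and 2111 and 2679 after training, without separation of the conditions. Astro1 (1346 ± 297 CPM) lay 1.87-fold lower and beyond the spread, but its greater number of cells made it the largest single source, with 48.8% ± 7.6 of Igfbp2 UMIs. Astro3 (597 ± 136 CPM) followed and Astro2 was at 17.5 CPM, so that the 3 astrocyte clusters differed widely. Mes1 was the highest cluster of the whole-bulb annotation for both Igf2 and Igfbp2. In the neuron annotation the small cluster n16-M/TC-2, described further on, had a higher mean of Igfbp2 than Mes1. Igfbp2 UMIs were seen in 68.3% of Mes1 cells and 66.6% of Astro1 cells, against 3.65% of red blood cells and 6.41% of myelinating oligodendrocytes.

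Igfbp3, the main carrier of IGF in blood plasma, was scarce in the bulb, with 560 UMIs in all annotated cells. Oligodendrocyte precursors (OPC) had the highest level, 90.2 ± 21.5 CPM, with 55.2 and 103 CPM in control, 110 and 72.1 under naris occlusion and 99.1 and 102 after training. Neuron clusters N16 (55.5 ± 27.2 CPM) and N13 (29.9 ± 4.2 CPM) were the next among non-vascular clusters. In the neuron annotation the highest were the periglomerular clusters n05-PGC-2 (45.9 ± 20.9 CPM) and n02-PGC-1 (44.8 ± 8.0 CPM), which did not differ beyond their spread. A UMI was seen in 20.9% of the 397 OPC, in 0 of 858 myelinating oligodendrocytes, which allows a share of up to 0.350%, and in 0 of 219 red blood cells, which allows up to 1.37%.

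Igfbp4, which lowers IGF action and is cut by the protease PAPP-A, followed the OECs, which held 72.5% ± 3.3 of its UMIs. OEC1 libraries were at 478 and 477 CPM for control, 558 and 484 for naris occlusion and 500 and 577 for trained. Mes2 (360 ± 178 CPM) and macrophages (338 ± 48.8 CPM) had levels like that of OEC2, and the drop came below OEC3, 3.05-fold to the next cluster. Macrophages were among the 4 highest clusters of the whole-bulb annotation for both Igf1 and Igfbp4, whereas microglia were at 12 to 17 CPM of Igf1 and 25 to 30 CPM of Igfbp4.

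Igfbp5, a binding protein that also attaches to extracellular matrix, had 74.3% ± 3.7 of its UMIs in OECs. OEC1 libraries held 1655 and 1952 CPM for control, 1790 and 1759 for naris occlusion and 1427 and 1633 for trained, and both trained libraries were below the other 4. OEC2 (894 ± 138 CPM) was 1.90-fold lower and beyond the spread. Neuron cluster N2 (850 ± 616 CPM) varied widely over libraries. N2 had 68 cells and carried the OEC markers at 15552 CPM, more than any other neuron cluster. Mes2 (643 ± 294 CPM) and the mitral and tufted cell cluster N15 (531 ± 77 CPM) were the highest outside the OECs and N2. Igfbp5 UMIs were seen in 90.8% of OEC1 cells against 6.39% of red blood cells and 6.99% of myelinating oligodendrocytes.

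Igfbp7, a secreted relative with low affinity for IGF, was highest in a mural cluster, cells of the vessel wall. Mural2 was at 5049 ± 362 CPM, with 5304 and 5424 CPM in control, 4833 and 4846 under naris occlusion and 4531 and 5355 after training. Mural1 (2998 ± 90.5 CPM), EC1 (2371 ± 416) and OEC1 (1730 ± 169) followed, each step beyond the spread. Mural1 also carried the endothelial marker Cldn5 at 3465 ± 591 CPM, and the part of endothelial RNA in its level was not tested. UMIs of Igfbp7 were seen in 93.9% of Mural2 and 91.7% of EC1 cells, against 5.94% of red blood cells. By source its UMIs were divided between OECs (35.7% ± 7.1), endothelial cells (32.8% ± 5.8) and mural cells (20.8% ± 2.9).

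Igfbpl1, a secreted protein with a binding protein-like domain, was highest in clusters of immature neurons, and neurons held 95.2% ± 0.9 of its UMIs. N1 was at 1668 ± 61.0 CPM, with 1663 and 1765 CPM in control, 1654 and 1707 under naris occlusion and 1596 and 1621 after training, and both trained libraries were the lowest by a small margin. N4 (870 ± 200 CPM), N2 (854 ± 373), N3 (639 ± 99.1) and N13 (367 ± 65.0) came next. N1, N4, N2 and N3 were also the 4 clusters with the highest sum of the immature neuron markers Dcx, Sox11 and Cd24a, in the same order, from 4366 CPM in N1 to 2193 CPM in N3. In the neuron annotation, n04-Immature was at 1544 ± 63.3 CPM, n03-GC-1 (granule cells) at 424 ± 38.6, n02-PGC-1 at 289 ± 108 and n10-GC-4 at 99.0 ± 32.8. Igfbpl1 was lower than in n04-Immature in 6 of 6 libraries in each of the 11 transitional, granule and periglomerular clusters compared. On the log2(CPM + 1) scale the mean difference ran from -1.87 in n03-GC-1 and -2.50 in n02-PGC-1 to -6.76 in n12-GC-6 (13 UMIs) among the clusters with a UMI in every library. n05-PGC-2 and n09-GC-3, each with 11 UMIs, had 0 in 3 and in 1 of the 6 libraries, so a log2 difference there depends on the added 1, and their levels were 11.7 ± 14.2 and 27.0 ± 19.8 CPM. n06-Transition was at -4.76, below n03-GC-1 and n02-PGC-1. The study places n06-Transition on a different arm of its computed maturation timeline from these 2, so this is not an order of stages. Its cells were also shallower, with library medians of 645.5 to 870 UMIs per cell against 1241 or more in n03-GC-1. A UMI was seen in 83.3% of n04-Immature cells, and in whole-bulb terms in 90.2% of N1 cells against 5.48% of red blood cells.

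Mitral and tufted cells, the output neurons of the bulb, divided into 3 clusters with unlike IGF genes. The 116 cells of n16-M/TC-2 were at 644 ± 395 CPM of Igf1 and 2987 ± 780 CPM of Igfbp2. n17-M/TC-3, with 927 cells, held 224 ± 46.4 CPM of Igf1 and 136 ± 24.9 CPM of Igfbp2, and the 90 cells of n15-M/TC-1 held 121 ± 76.4 and 139 ± 154. Igfbp2 in n16-M/TC-2 was 2878 and 1908 CPM in control, 4240 and 2714 under naris occlusion and 2774 and 3410 after training, and the lowest of them was far above every other neuron cluster. Igf1 in n16-M/TC-2 was 618 and 600 CPM in control, 429 and 183 under naris occlusion and 667 and 1364 after training. The conditions did not overlap for Igf1, but these values rest on 7 to 32 UMIs per library, and trained replicate 2 had 8 cells. Of the 116 cells 104 had an Igfbp2 UMI, 49 had an Igf1 UMI and 44 had both. In n17-M/TC-3, 210 of 927 cells had an Igf1 UMI, 91 had an Igfbp2 UMI and 28 had both. Igfbp5 was lowest in n16-M/TC-2: n17-M/TC-3 was at 483 ± 59.5 CPM, n15-M/TC-1 at 182 ± 154 and n16-M/TC-2 at 41.9 ± 32.5. For Igf1r, n15-M/TC-1 (191 ± 100 CPM) and n17-M/TC-3 (189 ± 21.4) did not differ beyond their spread, and n16-M/TC-2 was lower, at 33.9 ± 23.1 CPM. The mitral and tufted cell markers (Cdhr1, Tbx21, Eomes, Slc17a7) reached a sum of 4351 CPM for n17-M/TC-3, 1780 for n16-M/TC-2 and 1435 for n15-M/TC-1, the 3 highest of the 18 neuron clusters. n16-M/TC-2 carried the astrocyte list at 535 CPM, at rank 10 of 18. The whole-bulb annotation spread its cells over several clusters, with 47 in N15, 42 in N14 and 14 in N12. Clusters n15-M/TC-1 and n16-M/TC-2 had under 10 cells in at least 1 library and were left out of the comparison of conditions given further on.

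**Figure D4:**
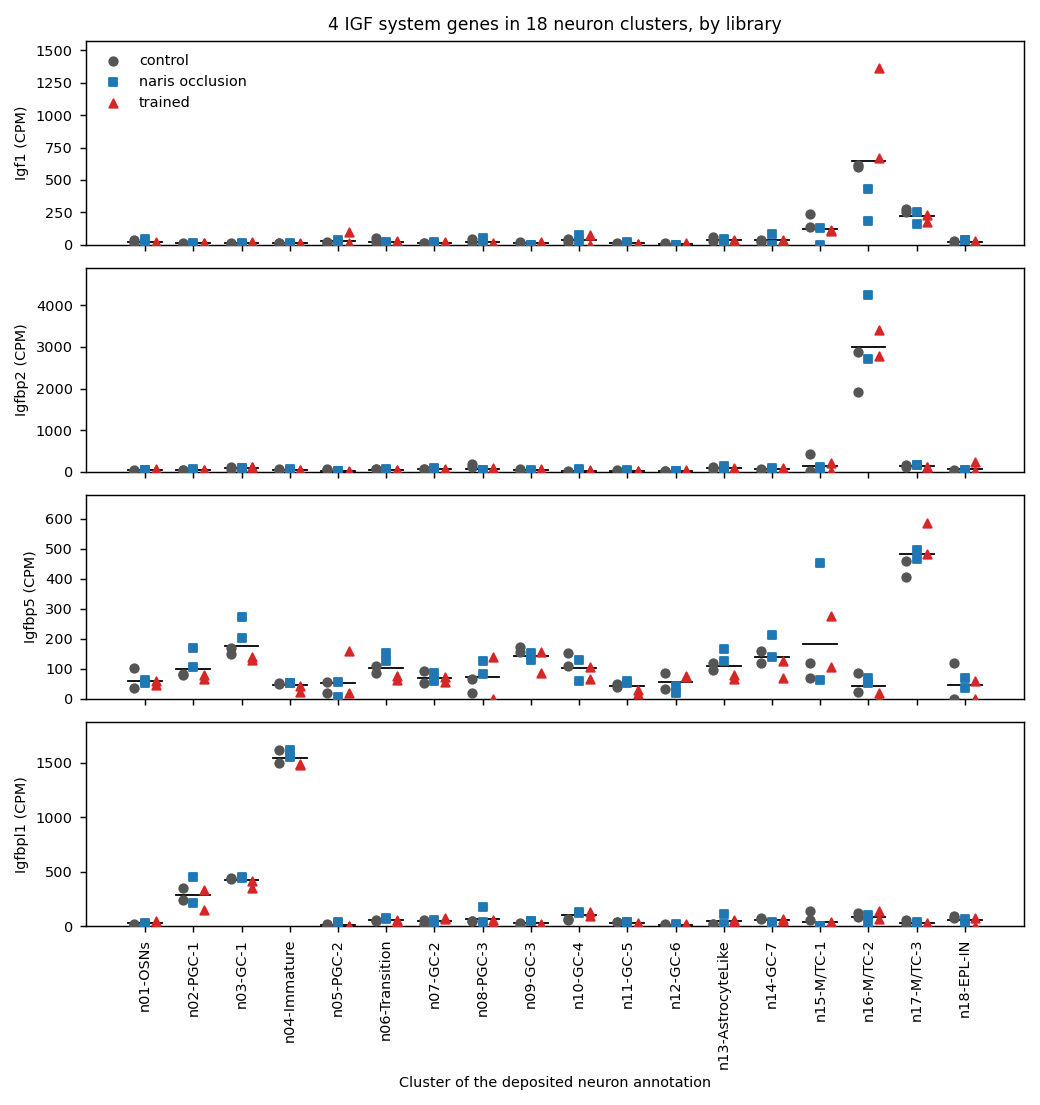
CPM of Igf1, Igfbp2, Igfbp5 and Igfbpl1 (vertical axes, from 0) in the 18 clusters of the neuron annotation (horizontal axis), each symbol 1 library colored by condition, lines at the mean of 6 libraries. Igf1 and Igfbp2 peak in n16-M/TC-2, Igfbp5 in n17-M/TC-3 and Igfbpl1 in n04-Immature.

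The neighbours Igfbp2 and Igfbp5, whose upstream sequences are shown above, thus had different highest clusters in both annotations: Mes1 and OEC1 in the whole bulb, and among neurons n16-M/TC-2 for Igfbp2 and n17-M/TC-3 for Igfbp5. Across the 38 clusters the members most alike in log2(mean CPM + 1) were Igf1 and Igfbp4 (Pearson r = 0.73), Igfbp4 and Igfbp5 (0.71) and Igf1 and Igfbp5 (0.66), all 3 highest in an OEC cluster. The lowest value was -0.20, for Igf1r and Igfbp4. These correlations describe 38 clusters from the same 6 libraries.

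By the same measure, each member was set against 8794 genes that reached 50 CPM in a cluster. Igf1 was most like Gdpd4 (r = 0.81), the chemokine receptor gene Cxcr4 (0.79) and Gm13499 (0.78). Igf2 was most like the scavenger receptor gene Colec12 (0.95) and the transporter genes Slc6a20a (0.90) and Slc6a13 (0.89). Igf1r was closest to the BMP receptor gene Bmpr2 (0.90), the zinc transporter gene Slc39a10 (0.88) and Lrrc49 (0.85). For Igfbp2 the likeness was weaker, with Aifm3 (0.81), the collagen gene Col1a1 (0.73) and Coch (0.72). Igfbp3 had Pik3r3 (0.81), Tsc22d1 (0.74) and Stx3 (0.70). Igfbp4 was most like Cd55 (0.89), RP23-474J16.2 (0.85) and the collagen gene Col12a1 (0.84), and Igfbp5 most like the ephrin gene Efna5 (0.87), Prrg3 (0.85) and Mia (0.83). Igfbp7 was nearest to the oncostatin M receptor gene Osmr (0.89), the basement membrane collagen gene Col4a1 (0.89) and Dock6 (0.87). Igfbpl1 was nearest to Sox11 (0.89) and Sp9 (0.85), transcription factor genes of young neurons, and to the prokineticin receptor gene Prokr2 (0.84).

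Of a list of other genes of the pathway, 26 are described, and Igfbp1 was not in the table. Levels given are those of the highest cluster of the whole-bulb annotation. Among carriers, Igfbp6 was highest in Mes2 at 1684 ± 233 CPM, 15.4-fold above the next cluster, and Igfals had 3 UMIs in its highest cluster, Mes1. Other receptors were Igf2r, which clears IGF2, at 55.5 ± 15.8 CPM in N8, the insulin receptor gene Insr at 102 ± 13.6 in EC1, and Insrr at 14.1 ± 11 in Mes1. Among proteases, Htra1, a secreted serine protease that can cut binding proteins, reached 1896 ± 146 CPM in Astro1, Adamts1 148 ± 35.7 in MicroG1, Pappa 28.1 ± 7.7 in N1 and Pappa2 4.33 ± 2.4 in OEC2. The protease inhibitor gene Stc1 was highest by mean in N2, at 25.1 ± 21.6 CPM from 5 UMIs in 68 cells. N1, at 22.3 ± 3.1 CPM from 130 UMIs, did not differ from it beyond the spread. Stc2 was scarce, with 1 UMI in N7, its highest cluster. Irs4 had 26 UMIs in N14, its highest cluster by mean, all of them in control replicate 1 and in 0.410% of the 244 cells, and N14 was at 0 in the other 5 libraries. Adaptors had different peaks: Irs1 (53.7 ± 15.8 CPM) in N14, Irs2 (66.1 ± 8.4) and Grb14 (689 ± 55.6) in myelinating oligodendrocytes, and Grb10 (104 ± 19.2) and Shc1 (141 ± 22.2) in Mes2. Of the kinase and kinase subunit genes downstream, Pik3ca was highest in Mural1 (108 ± 51.8 CPM), Pik3r1 in N13 (337 ± 66.2), Akt1 in Mes2 (70.4 ± 31.7), Akt2 in Astro1 (50.8 ± 12.9), Mtor in N14 (90.8 ± 32.0) and Gsk3b in N1 (522 ± 46.5). Tsc2 was highest in N11 (84.4 ± 12.6 CPM). The transcription factor gene Foxo1, which IGF signalling holds out of the nucleus, was highest in OEC4 (173 ± 12.6 CPM), and Foxo3 in N13 (53.7 ± 7.4). The highest cluster differed beyond the spread from the next for Igfbp6, Insrr, Htra1, Adamts1, Irs2, Grb14, Shc1, Tsc2 and Gsk3b alone.

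The design asks whether odor deprivation or training changed these genes in any cell type. Counts summed per cluster and library were compared with edgeR's quasi-likelihood test in the 38 clusters with at least 10 cells in every library, the 22 non-neuronal ones of the whole bulb and 16 of the neuron annotation, with p-values adjusted by Benjamini-Hochberg over all genes of a cluster. After the filter on low counts, 161 pairs of a member and a cluster entered each comparison: Igfbp5 in 32 clusters, Igfbp7 in 27, Igf1r in 24, Igfbp2 in 22, Igfbp4 in 21, Igf1 in 15, Igfbpl1 in 12, Igfbp3 in 5 and Igf2 in 3. Of these pairs, 7 passed the filter through the libraries of 1 condition alone, Igfbp3 in EC1 among them, so the counts of calls over the pairs are a description. The pairs are 9 genes repeated over clusters of the same libraries, so they are not independent. With 2 libraries per condition, each of 1 pool, p-values measure the spread between pools, and the sexes of the pools are part of that spread.

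Naris occlusion changed no member past an adjusted p of 0.05 by edgeR. The background was 0.0680% of all gene and cluster pairs. By unadjusted p, 23 of the 161 pairs (14.3%) were under 0.05, against 4.78% of all pairs, and DESeq2 called 0 (background 0.00425%). DESeq2 was run without the filter on low counts, so its background is over 541030 pairs against 178070 for edgeR in this comparison, and the 2 percentages are not on the same base. The smallest adjusted p by edgeR was 0.0815, for Igfbp5 in Astro2, with a log2 fold change of -1.20 (SE 0.29). There the control libraries were at 287 and 433 CPM, the naris occlusion libraries at 190 and 124 and the trained libraries at 287 and 151. The OEC marker genes in Astro2 summed to 2057 and 2036 CPM in control, 1186 and 1486 under occlusion and 812 and 796 in trained, and their part in the difference was not tested. In OEC4, where Igf1 was highest, the log2 difference of occlusion minus control was -0.07 (95% interval -0.33 to 0.18). For the other members in their highest tested cluster it was 0.20 for Igf2 in Mes1 (-0.15 to 0.55), 0.01 for Igf1r in EC1 (-0.28 to 0.31), 0.11 for Igfbp2 in Mes1 (-0.18 to 0.41), 0.16 for Igfbp3 in OPC (-0.58 to 0.90), 0.12 for Igfbp4 in OEC1 (-0.14 to 0.39), -0.03 for Igfbp5 in OEC1 (-0.27 to 0.22), -0.17 for Igfbp7 in Mural2 (-0.47 to 0.13) and 0.0035 for Igfbpl1 in n04-Immature (-0.23 to 0.24).

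For trained minus control, edgeR called 2 of the 161 pairs, Igfbp2 in Astro1 and Igfbp3 in EC1, against a background of 0.0932% of all pairs. By unadjusted p, 29 pairs (18%) were under 0.05, against 5.73% of all pairs, and DESeq2 called 1 (background 0.00684%). Igfbp5 alone held 9 of these 29 pairs, so the percentage does not describe the members evenly. For trained minus naris occlusion, edgeR called 2 pairs, Igfbp3 in EC1 and Igfbp7 in the granule cell cluster n11-GC-5, against a background of 0.175%. There 35 pairs (21.7%, against 7.21% of all pairs) were under an unadjusted 0.05, and DESeq2 called 0 (background 0.00982%). DESeq2 gave an adjusted p for 147 of the 161 pairs against control and 151 against naris occlusion. Its backgrounds here were over 511632 and 519205 pairs, again without the filter on low counts, so they are not on the same base as the 161 filtered pairs. The 2 comparisons share the trained libraries and are not independent. Of the conditions compared, Igfbp3 in EC1 and Igfbp7 in n11-GC-5 reached the filter only in the one where they were high. The counts of calls are therefore no measure of an excess over the background.

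Igfbp2 was lower in Astro1 after training. Astro1 libraries were at 1593 and 1811 CPM for control, 1299 and 1154 for naris occlusion and 1025 and 1196 for trained. Both control libraries were above the other 4, and occlusion and training overlapped. The log2 fold change of trained minus control was -0.63 (SE 0.12, edgeR adjusted p = 0.0314), while occlusion minus control was -0.49 (SE 0.12, edgeR adjusted p = 0.688). An Igfbp2 UMI was seen in 73.0% and 73.4% of Astro1 cells of the control libraries and in 62.3% to 63.9% of those of the other 4. The OEC marker list in Astro1 was also lowest in the trained libraries, at 2673 and 2750 CPM against 3221 to 4050 CPM, and the astrocyte list was at 7710 and 8046 against 7136 to 7907 CPM. Their part in the difference was not tested. The call was lost without control replicate 1 (adjusted p = 0.0683), control replicate 2 (0.517), naris occlusion replicate 1 (0.0645), naris occlusion replicate 2 (0.0787) or trained replicate 1 (0.141), and with only the libraries of the 2 conditions (0.0869). In Mes1, the log2 difference of trained minus control was 0.01 (95% interval -0.29 to 0.31).

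Igfbp3 was higher in EC1 after training, at a low level. EC1 libraries were at 7.73 and 8.30 CPM for control, 8.17 and 7.64 for naris occlusion and 34.2 and 32.0 for trained, from 7, 7, 5, 6, 30 and 21 UMIs. Both trained libraries stood clearly above the other 4. They alone reached the filter's 12.3 CPM in EC1, so the gene entered the test only through the condition in which it was high. Without the filter the calls were kept (edgeR adjusted p = 0.000722 against control and 0.00157 against occlusion). That setting used the same libraries and called more members in both comparisons, so it is not separate support for the calls. The log2 fold change was 2.05 against control (SE 0.41, edgeR adjusted p = 0.0290) and 2.08 against naris occlusion (SE 0.43, edgeR adjusted p = 0.0298). The UMIs came from 20 and 13 cells of the trained libraries, 4.05% and 3.95% of EC1 cells, and from 4 or 5 cells, 0.870% to 1.69%, of each other library. The endothelial list of EC1 was at 8488 and 10728 CPM in the trained libraries against 10135 to 11656 CPM in the other 4, and the mural list at 560 and 516 against 500 to 585 CPM. The part of other cells or of the endothelial list in the difference was not tested. Against control the call was lost without control replicate 1 (adjusted p = 0.366), control replicate 2 (0.126) or trained replicate 1 (0.202). Against naris occlusion it was lost without naris occlusion replicate 1 (0.207), naris occlusion replicate 2 (0.354) or trained replicate 1 (0.197). With only the libraries of the 2 conditions the adjusted p was 0.0640 and 0.0653, and with cells of at least 1000 UMIs 0.0614 and 0.104. DESeq2 called neither comparison, as its own filter left both without an adjusted p (unadjusted 0.00414 and 0.00521). In the same cluster Igf1r was at 0.48 (SE 0.14) for trained minus control, with an adjusted p of 0.191 by edgeR, so that the separation of its trained libraries did not pass the test.

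Igfbp7 in n11-GC-5, a granule cell cluster with little of it, differed between training and occlusion. Libraries were at 17.9 and 12.3 CPM for control, 30.6 and 42.1 for naris occlusion and 6.19 and 12.1 for trained, from 4 to 32 UMIs each. The log2 fold change of trained minus naris occlusion was -2.03 (SE 0.44, edgeR adjusted p = 0.0346). In n11-GC-5 the filter stood at 15.8 CPM, reached by both naris occlusion libraries, 1 control library and no trained library. Of the 2 conditions compared, the pair thus passed only through the one in which it was high. Hemoglobin and Alas2, the red blood cell list, moved with it. Their sum in n11-GC-5 was 2317 and 1757 CPM in the naris occlusion libraries, 123 and 53.9 in control and 40.2 and 50.4 in trained. The endothelial list was at 137 and 159 CPM under occlusion, 109 and 113 in control and 91.2 and 94.8 in trained. The part of blood or vessel RNA in the difference was not tested. The call was lost without naris occlusion replicate 2 (adjusted p = 0.352) or trained replicate 1 (0.570), with DESeq2 (1.00) and with only the libraries of the 2 conditions (0.0622).

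**Figure D5:**
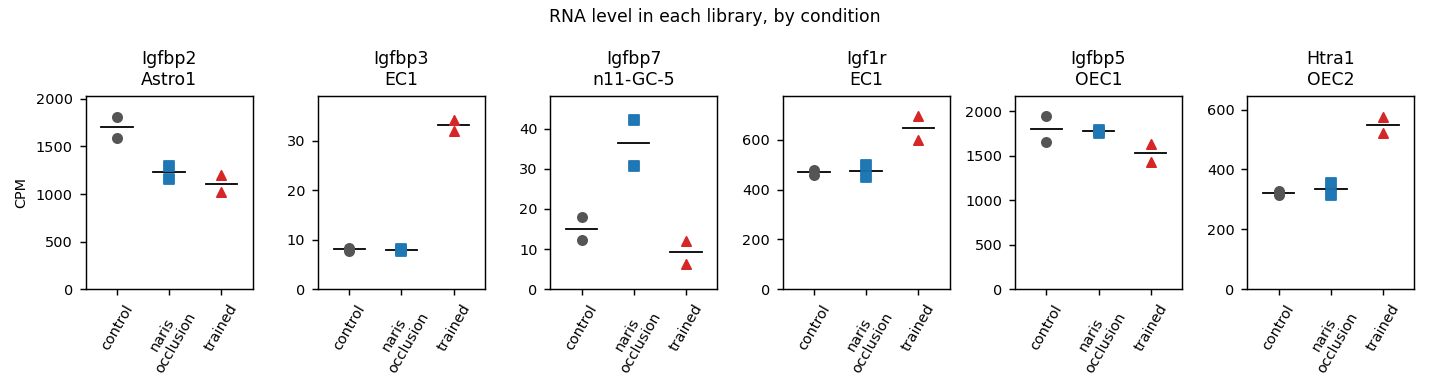
CPM (vertical axes, from 0) in each library by condition, lines at the mean of 2, for 6 gene and cluster pairs. Igfbp3 in EC1 and Htra1 in OEC2 are higher in both trained libraries than in the other 4, Igfbp2 in Astro1 is highest in control, and Igfbp7 in n11-GC-5 is highest under naris occlusion. Igf1r in EC1 and Igfbp5 in OEC1 did not pass the test.

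Igfbp5 was below 0 after training in most clusters by the fitted difference, without a call in any. Its fitted difference was below 0 in 24 of 32 clusters against control, with 9 lower and 0 higher at an unadjusted p under 0.05, and in 24 of 32 against naris occlusion, with 11 lower and 2 higher. Over all genes, 49.8% of pairs were below 0 in each of these comparisons, and 2.70% and 3.40% were lower at an unadjusted p under 0.05. Igfbp7 was below 0 in 21 of 27 clusters against control (5 lower and 1 higher at that p) and in 14 of 27 against naris occlusion (1 and 3), and Igfbp2 in 15 of 22 in each comparison (4 and 1 in each). Against control and against naris occlusion, Igfbpl1 was below 0 in 9 and 10 of 12 clusters, Igf1 in 11 and 10 of 15, Igfbp4 in 11 and 15 of 21 and Igf1r in 9 and 10 of 24. The clusters come from the same libraries and are not independent. The smallest adjusted p were 0.118 in OEC2 against control and 0.0907 in n11-GC-5 against naris occlusion. OEC2 libraries were at 998 and 1073 CPM for control, 925 and 884 for naris occlusion and 693 and 791 for trained, a log2 difference of -0.49 (SE 0.12) for trained minus control. OEC3 was at 524 and 531, then 567 and 560, then 373 and 408 CPM in the same order, and OEC4 at 208 and 215, 219 and 216, and 169 and 167 CPM. In both, the trained libraries were below all others. OEC5 had 1 high trained library, with 564 and 1019 CPM in trained against 515 to 662 CPM in the rest. The share of OECs among annotated cells was 21.4% and 23.0% in control, 25.7% and 24.9% in naris occlusion and 18.3% and 23.1% in trained, and that of OEC1 was 4.76% and 4.36%, 5.60% and 5.71%, and 2.2% and 4.12%. The part of free RNA from OECs in the values of other clusters was not tested.

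For the remaining members, trained minus control in the highest tested cluster was -0.16 for Igf1 in OEC4 (95% interval -0.41 to 0.10), 0.10 for Igf2 in Mes1 (-0.25 to 0.46), 0.16 for Igfbp4 in OEC1 (-0.11 to 0.43), -0.15 for Igfbp7 in Mural2 (-0.44 to 0.15) and -0.07 for Igfbpl1 in n04-Immature (-0.31 to 0.16). Igfbp3 in OPC was at 0.36 (-0.36 to 1.08) and Igfbp5 in OEC1 at -0.25 (-0.50 to -0.0034, edgeR adjusted p = 0.870). A log2 difference of 1 lay outside each of these intervals except that of Igfbp3 in OPC.

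Of these pathway genes, 21 were tested in 303 pairs. Training raised 2 pairs against control and raised 3 and lowered 1 against naris occlusion by edgeR, and occlusion changed 0 against control. Under an unadjusted 0.05 there were 15 pairs for occlusion minus control (4.95%, against 4.78% of all pairs), 24 for trained minus control (7.92%, against 5.73%) and 27 for trained minus occlusion (8.91%, against 7.21%). All but 1 of these calls were Htra1 in OECs. In OEC2, Htra1 was at 328 and 313 CPM in control, 355 and 314 in naris occlusion and 575 and 523 in trained, with log2 fold changes of 0.77 (SE 0.13, edgeR adjusted p = 0.0055) against control and 0.71 (SE 0.13, adjusted p = 0.0206) against occlusion. OEC1 was called against occlusion (0.66, SE 0.13, edgeR adjusted p = 0.0277), with 439 and 453, 413 and 430, and 731 and 612 CPM in control, occlusion and trained. OEC4 was called against control (0.55, SE 0.12, edgeR adjusted p = 0.0351), with 278 and 300, 311 and 326, and 450 and 410 CPM. OEC5 was called against occlusion (0.86, SE 0.18, edgeR adjusted p = 0.0370), with 327 and 223, 291 and 229, and 478 and 473 CPM. In each of the 5 OEC clusters both trained libraries were above the other 4. Among astrocytes, Htra1 in Astro1, where it was highest, was at 0.04 for trained minus control (95% interval -0.19 to 0.27). In Astro2 the trained libraries were at 446 and 343 CPM against 205 to 286 CPM in the other 4, with log2 differences of 0.70 against control (95% interval 0.11 to 1.28, edgeR adjusted p = 0.561) and 0.72 against occlusion (0.14 to 1.30, edgeR adjusted p = 0.662). In Astro3 they were at 839 and 773 CPM against 441 to 764 CPM, with 0.18 against control (-0.24 to 0.60) and 0.52 against occlusion (0.08 to 0.96, edgeR adjusted p = 0.852). The astrocyte marker list (Gfap, Aqp4, Slc1a3, Aldoc, Agt) was also highest in the trained libraries in OEC1, at 1951 and 1845 CPM against 1596 to 1666, and in OEC2, at 3039 and 3033 against 2723 to 3003 CPM. In OEC4 (2842 and 2949 against 2709 to 2964 CPM) and OEC5 (2578 and 2255 against 2119 to 2436 CPM) it overlapped. The OEC marker genes in OEC5 summed to 25076 and 26199 CPM in the trained libraries against 28058 to 29470 in the other 4. The part of these markers in the Htra1 differences was not tested. Leaving out trained replicate 1 ended all 5 Htra1 calls by edgeR, with adjusted p of 0.0521 to 0.324. Against control, the OEC2 call was also lost without control replicate 1 (0.103) or control replicate 2 (0.0747), and the OEC4 call without control replicate 1 (0.995) or control replicate 2 (0.430). Against occlusion, the call was lost without naris occlusion replicate 2 in OEC1 (0.0530), OEC2 (0.176) and OEC5 (0.421), without naris occlusion replicate 1 in OEC1 (0.110) and without trained replicate 2 in OEC5 (0.0753). DESeq2 did not call OEC2 against control (0.183) or occlusion (0.552) or OEC5 against occlusion (1.00). With only the libraries of the 2 conditions, the calls against occlusion were lost in OEC2 (0.0917) and OEC5 (0.155). With cells of at least 1000 UMIs, OEC4 against control (0.0588) and OEC5 against occlusion (0.05003) were lost. Adamts1 was lower in MicroG2 in trained than in naris occlusion libraries (log2 fold change -1.68, edgeR adjusted p = 0.0380), with 19.8 and 38.5, 46.0 and 47.6, and 16.8 and 12.7 CPM, and the call ended without naris occlusion replicate 2 (0.204), with DESeq2 (1.00), with only the libraries of the 2 conditions (0.0823) and with mitochondrial and hemoglobin genes left out (0.0528). In MicroG2 the red blood cell list was at 150 and 929 CPM under occlusion against 53.5 and 50.6 in trained, and the endothelial list at 114 and 201 against 97.6 and 103 CPM. Their part in the Adamts1 difference was not tested.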

How the data were processed

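Per the labels and the study's methods, bulbs were dissociated and single cells captured with 10x chemistry. The authors deposited a table of raw UMI counts per gene and cell, made with Cell Ranger 2.0.0 on mm10 and clustered with Seurat 2.2.1, with cell annotations that were used as given. Cells with fewer than 200 genes had been removed by the authors, and the mitochondrial fraction of each cell is as deposited. By the study's account doublets were removed from its data, but it does not say whether from the deposited count table. That table holds 1123 barcodes without a cluster annotation. No doublet caller was run, so doublets may remain.

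The starts of cell names and the library column of the annotation disagree for the trained libraries, and the annotation was followed. Counts were summed per cluster and library. Levels are counts per 1000000 of these sums (CPM), and shares of cells were also computed with cells thinned to 500 UMIs. Conditions were compared with edgeR 4.0.16 (quasi-likelihood, TMM, filterByExpr, Benjamini-Hochberg over all genes of a cluster) in R 4.3.3, fitting all 6 libraries. Scripts were tested on simulated data. DESeq2 1.42.0, other filters and left-out libraries were alternatives.

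Members and gene lists were chosen with earlier results of these data known. Named genes were all members, the 3 genes most like each, and pathway genes with their highest cluster and their calls, except some genes not reported here. Replicate numbers share a sex but paired the samples weakly (median correlations of 0.064 to 0.098). The limits given for counts of 0 cover counting error only.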

Additional observations from a re-analysis of the deposited data

Results flagged for a closer look

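The 1123 barcodes without a cluster annotation, which entered no comparison, held UMIs of all 9 genes above the limit of 3 that a count of 0 allows. Igf1 had 439 UMIs (145 CPM, against 117 CPM in annotated cells), Igf2 had 6 (1.99 against 25.3 CPM) and Igf1r had 287 (95.0 against 88.6 CPM). Igfbp2 had 685 UMIs (227 against 196 CPM), Igfbp3 had 13 (4.31 against 6.43 CPM) and Igfbp4 had 397 (131 against 112 CPM). Igfbp5 had 1036 UMIs (343 against 262 CPM), Igfbp7 had 714 (236 against 430 CPM) and Igfbpl1 had 310 (103 against 160 CPM). The median depth of these barcodes was 2327 UMIs.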

How the results depend on the processing

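The highest cluster was the same for 9 of 9 members under every alternative, Igfbpl1 stayed lower than in n04-Immature in 11 of 11 clusters, and no result reversed under the alternatives run. Counts of member calls moved. For naris occlusion minus control the count of 0 became 1 without the filter on low counts, 1 with only the libraries of the 2 conditions, and 0 to 3 on leaving out 1 library (3 without trained replicate 1 or trained replicate 2, 2 without naris occlusion replicate 1, 1 without control replicate 1). For trained minus control the count of 2 became 1 with DESeq2, 4 without the filter, 0 with only the 2 conditions, 1 with cells of at least 1000 UMIs, and 0 to 5 on leaving out 1 library (0 without control replicate 1 or control replicate 2, 1 without trained replicate 1, 5 without trained replicate 2). For trained minus naris occlusion the count of 2 became 0 with DESeq2, 7 without the filter, 0 with only the 2 conditions, 1 with cells of at least 1000 UMIs, and 2 to 6 on leaving out 1 library (6 without trained replicate 2). These counts do not show that the same pairs stayed called. For trained minus naris occlusion, both main calls were lost without trained replicate 1, and also without naris occlusion replicate 2. The calls counted in those settings were other pairs. For trained minus control, both main calls were lost without trained replicate 1, and the call counted there was another pair. The replicate block gave 0, 2 and 4 calls in the 3 comparisons. Same-numbered samples share a number and a sex, and whether control and naris occlusion libraries also share mice was not settled. The main test treated the libraries as unpaired, and the block is given here alone. A minimum of 5 cells per library, chosen after seeing the data, changed none of these counts. The cause of these changes was not tested. Some calls rest on few counts, such as 5 to 30 UMIs per library for Igfbp3 in EC1.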

Other observations

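With the minimum lowered to 5 cells per library, n16-M/TC-2 could be tested, a choice made after its values were seen. Igf1 there differed by 1.42 (SE 0.47) on the log2 scale for trained minus naris occlusion, with an adjusted p of 0.289 by edgeR. It differed by -0.88 for naris occlusion minus control (edgeR adjusted p = 0.818) and by 0.54 for trained minus control (edgeR adjusted p = 0.975). In OEC4, 2351 of 3436 cells had an Igf1 UMI, 146 had an Igfbp2 UMI and 103 had both.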
